A study of Mus musculus with 6 samples.

Results

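The 10 genes described here encode enzymes and a chaperone that modify, fold and crosslink collagen: the lysyl oxidases Lox, Loxl1, Loxl2, Loxl3 and Loxl4, the prolyl 4-hydroxylase subunits P4ha1 and P4ha2, the lysyl hydroxylases Plod1 and Plod2, and the collagen chaperone Serpinh1. They were picked by gene symbol, and the rule itself uses no measured value. All 10 were among the 16894 genes with values, and all 10 were among the 14776 genes tested. RNA had been sequenced in bulk from cultured fibroadipogenic progenitors (FAPs), mesenchymal cells found between the fibers of skeletal muscle, taken from young C57BL/6 mice of both sexes and sorted as CD31-CD45-Integrin α-7-SCA1+ cells. The 3 senescent cultures had received etoposide, a topoisomerase poison, at 20 μM for 48 h, and were then left in normal medium for 5 days. The 3 control cultures had not been made senescent, and whether they had received a vehicle is not given in the sources used here. Both groups carry replicate numbers 1 to 3, and no genetic change is given for either. No label says whether the cultures came from separate animals, so p-values measure the spread between these cultures, which may be technical.

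Collagen chains are modified in the endoplasmic reticulum before they leave the cell. Prolyl 4-hydroxylases make the hydroxyproline that keeps the triple helix stable at body temperature, lysyl hydroxylases make the hydroxylysine that later takes part in crosslinks, and the chaperone HSP47, encoded by Serpinh1, holds the folded helix until it is exported. Outside the cell, the copper-dependent lysyl oxidases convert lysine and hydroxylysine residues to aldehydes that join neighboring collagen or elastin molecules. In skeletal muscle, FAPs are a main source of this matrix, and crosslinking is known to make scar tissue stiff and slow to degrade.

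In GENCODE's annotation of GRCm38, the build the submitters' processing notes name as mm10, the lysyl oxidase genes lie on 5 chromosomes: Lox at chr18:52516067-52529867, Loxl1 at chr9:58287738-58313186 and Loxl4 at chr19:42593982-42612813 on the minus strand, Loxl2 at chr14:69609068-69695834 and Loxl3 at chr6:83034173-83052562 on the plus strand. The hydroxylase genes are P4ha1 at chr10:59323296-59373304, P4ha2 at chr11:54100095-54131665 and Plod2 at chr9:92542223-92608428 on the plus strand and Plod1 at chr4:147909753-147936767 on the minus strand. Serpinh1 is at chr7:99345376-99353239 on the minus strand. Levels per kilobase below use the exon lengths of this annotation.

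Library depth ranged from 41412179 to 59912520 reads on genes. Expression is given in CPM of the effective library size, that is read counts relative to the library's size after edgeR's scaling. In this unit 1 read was worth 0.0167 to 0.0225 CPM, so even the least abundant member, Loxl4, rested on at least 2400 reads per library. The labels were checked on 2 genes. Cdkn1a, which encodes the cell cycle inhibitor p21, rose from 289.9 ± 40.5 to 1038 ± 21.4 CPM (SD, n = 3). Mki67, a proliferation marker, fell from 158 ± 78.6 to 12.7 ± 5.49 CPM (SD, n = 3). Control replicate 2 stood apart from the other controls, with 247 CPM of Mki67 against 125 and 101 CPM. It also held the lowest Serpinh1, Lox, P4ha2 and Plod1 and the highest Loxl3 of the control group, and values without it are given beside the results it changes most. This library was picked out by its values in these same data, so results without it are description only.

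Of the 10 members, 8 were lower in senescent FAPs at an adjusted p under 0.05, none was higher, and Loxl3 and Plod2 did not pass the test. The test was limma on log2(CPM + 0.5), without pairing by replicate number, with p-values adjusted over all 14776 genes. With the replicate number as a block the same 8 were called lower, at limma adjusted p from 0.000296 (Plod1) to 0.0366 (Lox). No label pairs the cultures, and the pairing by number was inferred from these same data. Under that fit 26.7% of all tested genes were lower. Without adjustment, limma, edgeR and DESeq2 each called the same number at p under 0.05, 8 lower and 0 higher. After adjustment edgeR called 7 lower and DESeq2 called 8 lower, with 0 higher in both. By limma, 24.3% of all tested genes were lower and 21.8% were higher, 46.1% in either direction. Every member had a mean of at least 50 CPM, and among the 3990 genes at that level 35.9% were lower and 16% were higher. The median log2 fold change of the members was -0.55, against -0.03 for all tested genes. The study used a stricter threshold, an unadjusted p under 0.01 with a log2 fold change beyond 1. The study tested with edgeR, whereas here these cut-offs were put on the limma values. Serpinh1 was the one member past this threshold, which 3.9% of all tested genes and 3.06% of genes with at least 50 CPM passed downward. No member passed it upward, as 6.93% of all tested genes did. In 7 members the 3 senescent cultures all lay below the 3 controls, a separation seen downward in 30.9% of all tested genes and 42.6% of those with at least 50 CPM. No member was separated upward, as 26.5% of all tested genes were. In bulk RNA, fewer cells making a transcript and less transcript per cell cannot be told apart.

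**Figure D1:**
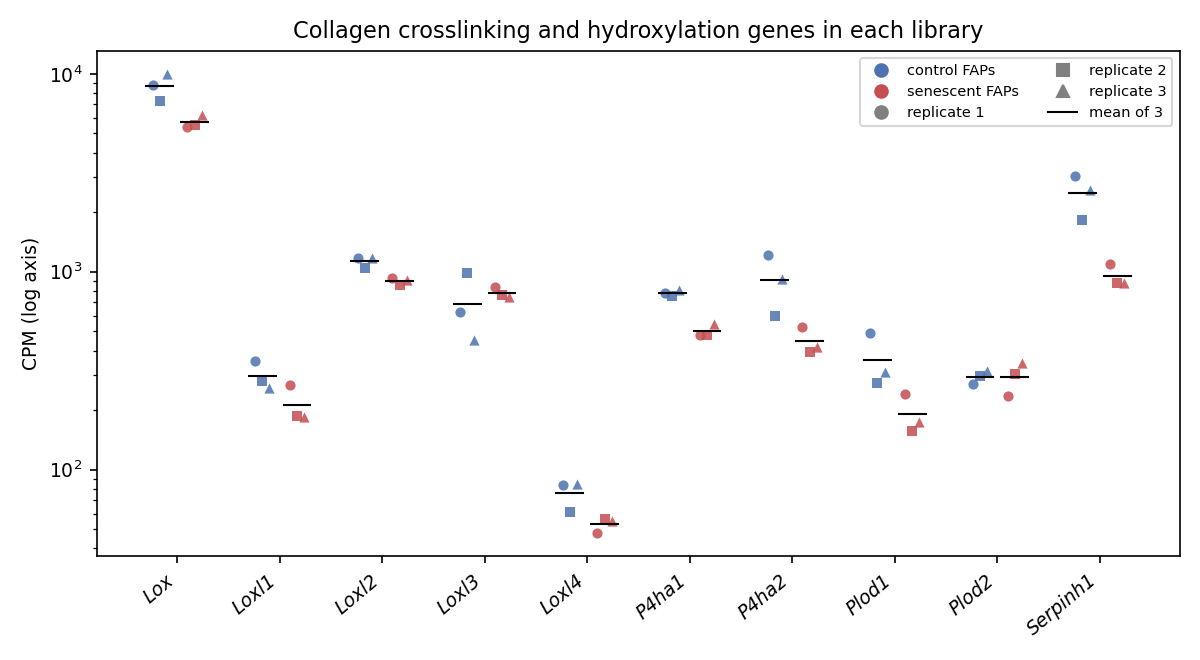
Expression of the 10 members in each library (CPM of the effective library size, log axis). Each point is 1 library, with a marker shape for each replicate number, and the black line is the group mean. Serpinh1, Lox, Loxl2, Loxl4, P4ha1, P4ha2 and Plod1 show senescent libraries that all lie under the controls, while Loxl1, Loxl3 and Plod2 overlap.

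Serpinh1 showed the largest decrease of the 10. Serpinh1 measured 3060.2, 1818 and 2601 CPM in control replicates 1, 2 and 3, and 1098, 879 and 875 CPM in senescent replicates 1, 2 and 3. The groups were well apart, since the lowest control, replicate 2, still exceeded the highest senescent culture. Its mean fell from 2493 ± 628 to 950.4 ± 128 CPM (SD, n = 3), 2.62-fold lower, with a log2 fold change of -1.37 (SE 0.20, limma adjusted p = 0.00168). The decrease was present within each replicate number, with log2 differences of -1.48, -1.05 and -1.57. It was called under all 19 alternative settings tried, and its log2 fold change ranged from -1.58 to -1.20 when 1 library at a time was left out.

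Both prolyl 4-hydroxylase catalytic subunits were lower. P4ha1 was the most uniform member among controls, with a coefficient of variation of 3.60%. P4ha1 measured 779, 754 and 810.0 CPM in the 3 controls and 477, 477 and 546 CPM in the 3 senescent cultures. No senescent culture came near a control, and the mean fell from 781 ± 28.1 to 499.8 ± 39.7 CPM (SD, n = 3), a log2 fold change of -0.65 (SE 0.09, limma adjusted p = 0.00132). It was also called under all 19 alternatives. P4ha2, the subunit of the second isoenzyme, measured 1220.5, 596 and 914 CPM in controls and 529, 391 and 414 CPM in senescent cultures. The controls spread widely, and control replicate 2 lay nearer to senescent replicate 1 than to the other controls. The mean fell from 910.1 ± 312 to 445 ± 73.8 CPM (SD, n = 3), 2.05-fold, with a log2 fold change of -0.98 (SE 0.25, limma adjusted p = 0.0148). Without control replicate 2 the log2 fold change was -1.26. The call was lost without senescent replicate 2 (adjusted p = 0.06) or without senescent replicate 3 (adjusted p = 0.0588). These fits were unpaired, and with the replicate number as a block, a pairing inferred from these same data, the limma adjusted p was 0.00116.

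The ratio of P4ha2 to P4ha1 did not separate the groups. It was 1.57, 0.791 and 1.13 in control replicates 1 to 3 and 1.11, 0.82 and 0.759 in senescent replicates 1 to 3. The values overlap, and the log2 ratio differed by -0.34 (two-sided exact permutation p = 0.4). Without control replicate 2 it differed by -0.59 (exact permutation p = 0.2). With 3 cultures against 3, this test cannot give a p below 0.1. It was 1 of 4 ratios tested, and each had a p of 0.4 after Benjamini-Hochberg adjustment over the 4.

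The promoters of Serpinh1, P4ha1, P4ha2 and Plod1 are shown because these were the 4 members called lower under every scaling of the libraries that was tried. Each is the RefSeq window of 300 bases, 250 before to 50 after the transcription start, on GRCm38.p6, printed 5′ to 3′ on the gene's strand. Capitals mark matches, on either strand, to ACGTG or GCGTG, the core letters of hypoxia response elements, or to GAANNTTC or TTCNNGAA, adjoining units of heat shock elements. ACGTG and its reverse complement share letters in CACGTG, and the heat shock patterns read the same on both strands. A search for the CCAAT box, with the letters CCAAT, was made as well. The starts are those of RefSeq, and for P4ha2 and Plod1 they differ from the GENCODE gene ends given above. The Serpinh1 window is chr7:99353190-99353489 (minus strand), the P4ha1 window chr10:59323046-59323345 (plus strand), the P4ha2 window chr11:54100674-54100973 (plus strand) and the Plod1 window chr4:147936727-147937026 (minus strand).
Serpinh1: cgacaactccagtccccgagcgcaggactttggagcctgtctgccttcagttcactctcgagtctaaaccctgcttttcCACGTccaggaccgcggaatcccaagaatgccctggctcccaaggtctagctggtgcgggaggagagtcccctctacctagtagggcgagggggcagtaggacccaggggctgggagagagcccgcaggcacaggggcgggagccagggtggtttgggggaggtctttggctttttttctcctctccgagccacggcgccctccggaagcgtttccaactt
P4ha1: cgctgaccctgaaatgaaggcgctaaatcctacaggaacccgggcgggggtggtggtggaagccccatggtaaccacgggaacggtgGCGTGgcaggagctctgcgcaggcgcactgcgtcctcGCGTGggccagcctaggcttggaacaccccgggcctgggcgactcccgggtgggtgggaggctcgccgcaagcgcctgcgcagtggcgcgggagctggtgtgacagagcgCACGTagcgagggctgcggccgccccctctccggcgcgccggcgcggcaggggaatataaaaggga
P4ha2: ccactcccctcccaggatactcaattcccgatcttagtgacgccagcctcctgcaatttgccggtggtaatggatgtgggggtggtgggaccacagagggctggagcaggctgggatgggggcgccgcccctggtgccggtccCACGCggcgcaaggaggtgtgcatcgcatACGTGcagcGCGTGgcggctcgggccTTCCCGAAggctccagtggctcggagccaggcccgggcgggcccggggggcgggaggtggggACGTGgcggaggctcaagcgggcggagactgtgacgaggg
Plod1: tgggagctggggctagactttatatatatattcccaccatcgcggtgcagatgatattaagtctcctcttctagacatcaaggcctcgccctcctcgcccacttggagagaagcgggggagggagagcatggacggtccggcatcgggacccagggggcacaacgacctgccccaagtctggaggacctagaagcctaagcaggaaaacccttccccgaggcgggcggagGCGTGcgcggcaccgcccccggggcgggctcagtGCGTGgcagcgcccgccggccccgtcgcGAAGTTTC

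Serpinh1 held 1 match, ACGTG on the opposite strand beginning 171 bases before the start. P4ha1 held 1 ACGTG and 2 GCGTG, P4ha2 held 2 of each, and Plod1 held 2 GCGTG. The heat shock letters occurred once in P4ha2 as TTCNNGAA and once in Plod1 as GAANNTTC, and CCAAT in none of these windows. RefSeq windows were matched for 5 of the 10 members, the fifth being Loxl4, and all 5 held ACGTG or GCGTG. These letters are common, found in 43.8% of the 32851 windows of the same length, while GAANNTTC stood in 7.86%, TTCNNGAA in 8.52% and CCAAT in 37.4%. The 5 windows were 62.3% to 75% GC. A match is a description of the sequence, and binding was not measured here.

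The lysyl hydroxylases differed in their values. Plod1, whose enzyme acts mainly on lysines of the helical region, measured 489, 275 and 310.3 CPM in controls and 240.0, 156 and 174 CPM in senescent cultures. Replicate 1 was the highest in both groups, and the lowest control still exceeded every senescent culture. The mean fell from 358 ± 115 to 190.2 ± 44.1 CPM (SD, n = 3), 1.88-fold, with a log2 fold change of -0.89 (SE 0.24, limma adjusted p = 0.0178). The call was lost without senescent replicate 2 (adjusted p = 0.0706) or senescent replicate 3 (adjusted p = 0.0678). Those fits were unpaired, and with the replicate number as a block, the same inferred pairing, the limma adjusted p was 0.000296.

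Plod2 hydroxylates lysines of the telopeptides, the ends of the collagen molecule where crosslinks form. It measured 270.3, 298 and 314 CPM in controls and 234, 305 and 346 CPM in senescent cultures. The senescent group held both the lowest and the highest value, and the means were 294 ± 22.3 and 295 ± 56.7 CPM (SD, n = 3). Its log2 fold change was -0.01 (SE 0.14, limma adjusted p = 0.956), a sign that turned positive when libraries were scaled by their totals alone (0.20), by median-of-ratios factors (0.01) or by quantiles (0.14). The ratio of Plod2 to Plod1 was 0.552, 1.09 and 1.01 in controls and 0.976, 1.95 and 1.99 in senescent cultures. Senescent replicates 2 and 3 had the highest ratios, while senescent replicate 1 lay under control replicates 2 and 3. The log2 ratio was 0.88 higher in senescent cultures, which did not separate the groups when cultures were treated as unpaired (two-sided exact permutation p = 0.3). Within each replicate number the senescent culture had the higher ratio, by 0.82, 0.85 and 0.97 on the log2 scale (exact sign-flip permutation p = 0.25, the smallest that 3 pairs allow).

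**Figure D2:**
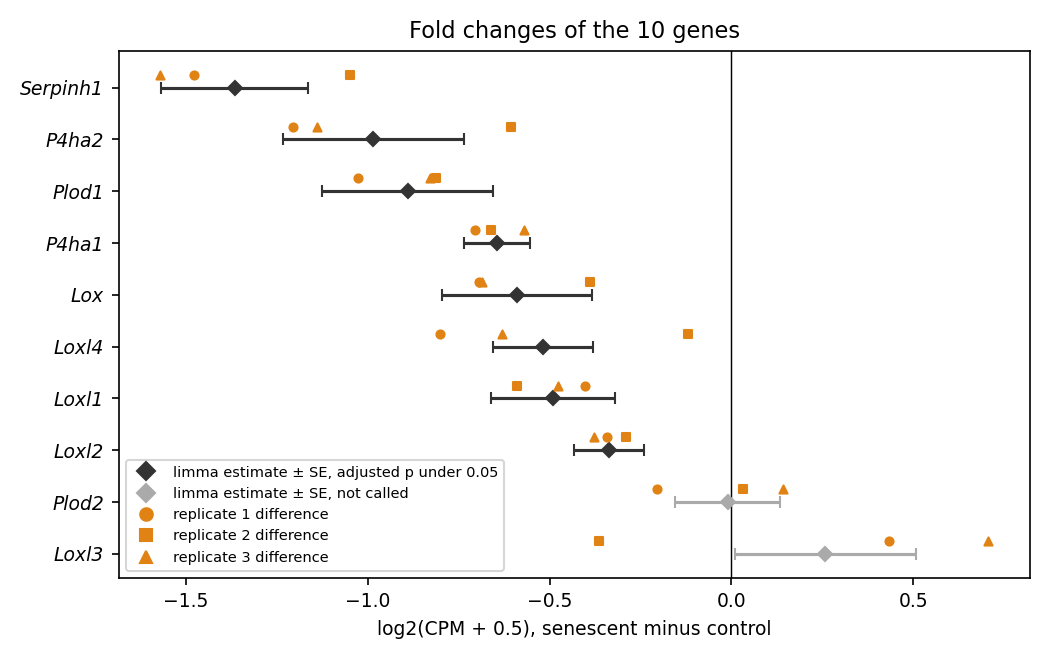
Log2 fold change of each member, senescent minus control. Diamonds are limma estimates with bars of 1 SE, and the smaller markers are the differences between libraries of the same replicate number. Serpinh1 lies farthest to the negative side at -1.37, Plod2 lies at -0.01, and the markers of Loxl3 fall on both sides of 0.

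Lox, the founding member of the lysyl oxidase family and by length-corrected level its most abundant one here, measured 8742, 7249.8 and 10011 CPM in controls and 5398, 5538 and 6219 CPM in senescent cultures. All senescent values lay under all control values. The mean fell from 8667 ± 1382 to 5718 ± 439 CPM (SD, n = 3), 1.52-fold, with a log2 fold change of -0.59 (SE 0.21, limma adjusted p = 0.0484). This call was close to its threshold. It was lost in 5 of the 6 fits that left out 1 library, the exception being the fit without control replicate 2 (adjusted p = 0.0122), and the highest adjusted p was 0.157 without control replicate 3. The other 4 fits without 1 library gave adjusted p = 0.101 (control replicate 1), 0.12 (senescent replicate 1), 0.145 (senescent replicate 2) and 0.106 (senescent replicate 3). The call also ended under other scalings, at -0.57 with median-of-ratios factors (adjusted p = 0.0543), -0.38 with totals alone (0.166) and -0.003 with quantile normalization (0.991). It ended as well with a pseudocount of 1 (0.0534) and with no filter (0.0591), and it held in 9 of the 19 alternatives.

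Among the lysyl oxidase-like genes, Loxl2, which also has a role inside the nucleus, had the tightest values. Loxl2 measured 1173, 1046 and 1179 CPM in controls and 926, 856 and 907 CPM in senescent cultures. The groups did not overlap, and the mean fell from 1133 ± 75.1 to 896 ± 36.3 CPM (SD, n = 3), with a log2 fold change of -0.34 (SE 0.10, limma adjusted p = 0.0246). This was a small change, and the call was lost without control replicate 1 (adjusted p = 0.0682), control replicate 3 (0.0893), senescent replicate 2 (0.102) or senescent replicate 3 (0.0693).

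Loxl4 was the least abundant member per kilobase. Loxl4 measured 83.5, 61.3 and 85.1 CPM in controls and 47.7, 56.3 and 54.8 CPM in senescent cultures. Control replicate 2 came within a few CPM of senescent replicate 2, without overlap. The mean fell from 76.6 ± 13.3 to 52.9 ± 4.63 CPM (SD, n = 3), with a log2 fold change of -0.52 (SE 0.14, limma adjusted p = 0.018). Leaving out control replicate 1, control replicate 3 or senescent replicate 1 took the adjusted p to 0.0524, 0.0632 and 0.0553.

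Loxl1, the family member most closely tied to elastic fibers, was called lower even though its groups overlapped. Loxl1 measured 353, 282 and 258 CPM in controls and 267, 187 and 185 CPM in senescent cultures. Senescent replicate 1 lay above control replicate 3, but within each replicate number the senescent culture was the lower, by log2 differences of -0.40, -0.59 and -0.48. The mean fell from 297 ± 49.3 to 213 ± 46.6 CPM (SD, n = 3), with a log2 fold change of -0.49 (SE 0.17, limma adjusted p = 0.0474). The call held in 10 of the 19 alternative settings. It was lost with edgeR (adjusted p = 0.0571), and without control replicate 1 (0.126), senescent replicate 2 (0.156) or senescent replicate 3 (0.156). It was also lost with median-of-ratios factors (0.0522), quantiles (0.14), the filter at 2 CPM (0.0505) and no variance trend (0.0718). With the replicate number as a block, again an inferred pairing, the limma adjusted p was 0.00203.

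Loxl3, which takes part in cartilage and palate development, was the one lysyl oxidase gene with a positive fold change. Loxl3 measured 623, 983 and 455 CPM in controls and 842, 763 and 742 CPM in senescent cultures. The senescent values sat inside the range of the controls, which held both extremes and varied by 39.3% of their mean. Means were 687 ± 269.9 and 782 ± 52.4 CPM (SD, n = 3), with a log2 fold change of 0.26 (SE 0.25, limma adjusted p = 0.423). The result depended on control replicate 2, the culture with the highest Mki67: without it Loxl3 was called higher, at a log2 fold change of 0.55 (limma adjusted p = 0.013). Weighting the libraries by their quality also gave a call, at 0.65 (limma array weights, adjusted p = 0.00631), whereas without control replicate 3 the value was -0.003. Loxl3 shares 535 exonic bases, 11.6% of its exon length, with Htra2 on the opposite strand. Htra2 went from 47.2 ± 3.49 to 38.9 ± 0.663 CPM (SD, n = 3), and whether counting used strand is not given in the sources used here.

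The composition of the lysyl oxidase family was compared per kilobase of exon, so that genes of different length can be set side by side. Lox made up 79.2 ± 4.25% of the family's summed CPM per kilobase in controls and 74.3 ± 2.46% in senescent cultures (SD, n = 3). Loxl3 made up 6.78 ± 3.40% and 10.6 ± 1.06%, and Loxl2 made up 9.22 ± 0.464% and 10.3 ± 0.51% (SD, n = 3). Loxl1 held 3.99 ± 0.785% and 4.03 ± 0.972%, and Loxl4 held 0.794 ± 0.0704% and 0.781 ± 0.0731% (SD, n = 3). The family thus kept Lox as its main transcript in every library, at 71.7% or more. The ratio of Lox to the sum of Loxl1 to Loxl4, per kilobase, was 3.82, 2.99 and 5.04 in controls and 2.53, 2.94 and 3.27 in senescent cultures. Senescent replicate 3 lay above control replicate 2, and the log2 difference was -0.41 (two-sided exact permutation p = 0.2). Without control replicate 2 the groups did not overlap, with a log2 difference of -0.60 (exact permutation p = 0.1, the smallest possible).

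**Figure D3:**
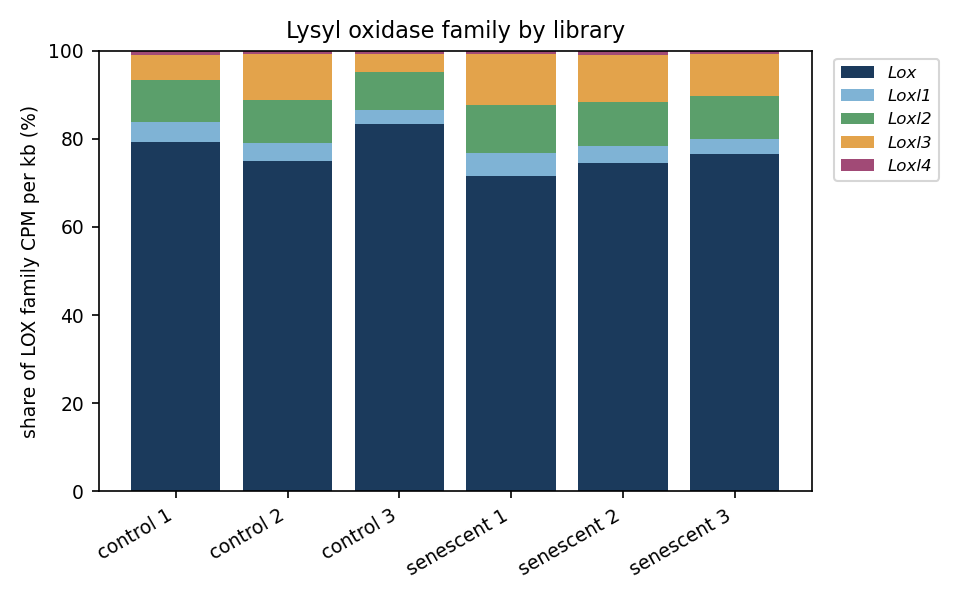
Share of each lysyl oxidase gene in the summed CPM per kilobase of exon of the 5 genes, in percent, for each of the 6 libraries. Lox fills 71.7% to 83.5% of each bar, and the Loxl3 segment is narrowest in control replicate 3.

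By length-corrected level, the order among controls began with Lox at 1814 ± 289 CPM per kilobase and Serpinh1 at 1020.4 ± 257 (SD, n = 3). Below them came Loxl2 at 209.6, P4ha1 at 189.8, Loxl3 at 149, P4ha2 at 146 and Loxl1 at 90.2 CPM per kilobase, each overlapping its neighbor in the order across libraries. Plod2 at 54.6 and Plod1 at 52.9 CPM per kilobase overlapped each other, and Loxl4 was last at 18.2. In senescent cultures the order was Lox at 1197, Serpinh1 at 389, Loxl3 at 170.0, Loxl2 at 166, P4ha1 at 121, P4ha2 at 71.3, Loxl1 at 64.6, Plod2 at 54.8, Plod1 at 28.1 and Loxl4 at 12.6 CPM per kilobase. There the neighbors Loxl3 and Loxl2, P4ha2 and Loxl1, and Loxl1 and Plod2 overlapped, and the other neighbors were apart. Loxl3 stood in the fifth place among controls and in the third place among senescent cultures, and in both groups its range overlapped that of Loxl2.

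The main substrates of these enzymes are fibrillar collagens and elastin. Of 12 fibrillar collagen and elastin genes, 6 were lower and 1 was higher, with a median log2 fold change of -0.99, and 9 were lower without control replicate 2. Among all tested genes 24.3% were lower, and among those with at least 50 CPM 35.9%. Without control replicate 2, the lowest control for most of the 12, 26.2% of all tested genes were lower. Col1a1, the main chain of collagen I, measured 21129.7, 9978 and 15527 CPM in controls and 4073, 2923 and 2353 CPM in senescent cultures. These groups were far apart, with a log2 fold change of -2.29 (SE 0.33, limma adjusted p = 0.0015). Col1a2, its partner chain, fell by 1.67 on the log2 scale (SE 0.31, adjusted p = 0.00396), and Col2a1, the cartilage collagen, by 2.69 from only 80.2 ± 38.5 CPM (SD, n = 3). Col24a1, a minor fibrillar collagen, was the one that rose, from 11.8 ± 0.816 to 23.6 ± 3.29 CPM (SD, n = 3). Col3a1 had a log2 fold change of -0.56 (adjusted p = 0.229), which turned to 0.27 under quantile normalization, and Eln, which encodes elastin, one of -1.11 (adjusted p = 0.109), so neither passed. Control replicate 2 held the lowest values of both among controls, so leaving it out moves both fold changes downward. Without it they were called lower, Col3a1 at -0.95 (limma adjusted p = 0.0104) and Eln at -1.79 (limma adjusted p = 0.000178). With 1 library left out, the highest limma adjusted p for Col3a1 was 0.495, without control replicate 1. For Eln it was 0.299, without control replicate 3. Eln was also called by edgeR on the recovered reads, at -1.43 (adjusted p = 0.0469).

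Set against Col1a1 in the same library, every member was higher in senescent cultures, with no overlap between groups. The background for this is 95.8% of 14775 genes, since almost any transcript rises against one that fell as far as Col1a1, and nothing is read from it about the members. Serpinh1, whose product chaperones collagen I, had ratios to Col1a1 of 0.145, 0.182 and 0.167 in controls and 0.269, 0.301 and 0.372 in senescent cultures. All senescent ratios exceeded all control ratios, by 1.90-fold or 0.92 on the log2 scale (two-sided exact permutation p = 0.1, the smallest this design allows). P4ha2 had the most even ratios among controls, at 0.0578, 0.0597 and 0.0589, against 0.13, 0.134 and 0.176 in senescent cultures.

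**Figure D4:**
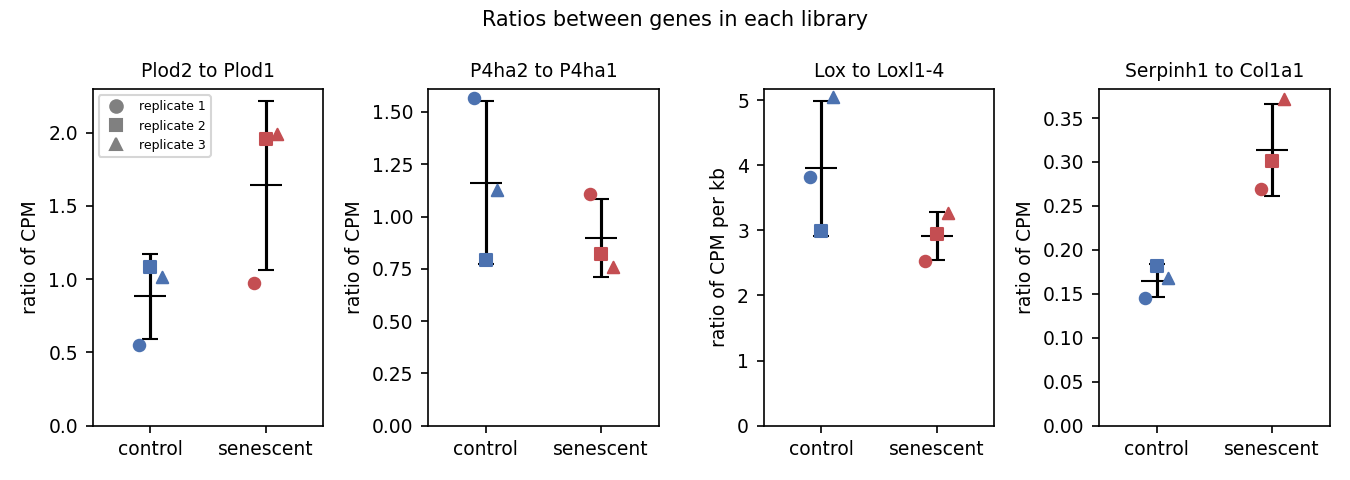
The 4 ratios tested, in each library, with the group mean and SD. The Serpinh1 to Col1a1 ratios of the 3 senescent cultures all lie above those of the controls, and the other 3 ratios overlap between groups.

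Of 16 further genes for collagen modification and folding, 15 were tested, 8 were lower and 2 were higher, with a median log2 fold change of -0.35. Over all tested genes 24.3% were lower and 21.8% higher, and over those with at least 50 CPM 35.9% and 16%. Among the hydroxylase partners, P4hb, the shared beta subunit of prolyl 4-hydroxylase, fell from 2701 ± 277 to 1491 ± 59.5 CPM (SD, n = 3), a log2 fold change of -0.85 (SE 0.12, adjusted p = 0.00158). Plod3, the third lysyl hydroxylase, which also adds glucose to galactosylated hydroxylysine, fell by 0.64 on the log2 scale (adjusted p = 0.00617). P4ha3, the third catalytic subunit, had a log2 fold change of -0.17 and did not pass (adjusted p = 0.17). With P4ha1 and P4ha2, 3 of the 4 prolyl 4-hydroxylase genes were therefore lower.

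In the prolyl 3-hydroxylase group, Lepre1, now named P3h1, fell from 243 ± 28.1 to 113 ± 15.1 CPM (SD, n = 3), a log2 fold change of -1.10 (SE 0.12, adjusted p = 0.000539). Its complex partner Ppib, a prolyl isomerase, fell by 0.57 on the log2 scale (adjusted p = 0.00196), while the third partner, Crtap, had a log2 fold change of -0.03 (adjusted p = 0.784), whose sign turned under scaling by totals (0.19) and by quantiles (0.06). Leprel1 (P3h2) was higher but scarce, with 0.425 ± 0.197 CPM in controls and 1.31 ± 0.383 CPM in senescent cultures (SD, n = 3). Leprel4 (P3h4) fell by 0.38 on the log2 scale (adjusted p = 0.00622), but was at -0.17 with totals alone (adjusted p = 0.135). Leprel2 (P3h3) had a log2 fold change of -0.29 that did not pass (adjusted p = 0.161). Without control replicate 2, its lowest control, it was called lower, at -0.47 (adjusted p = 0.00421). Without control replicate 1 its adjusted p was 0.407.

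Colgalt1, which adds galactose to hydroxylysine, fell from 410.3 ± 17.2 to 199 ± 11.3 CPM (SD, n = 3), a log2 fold change of -1.04 (SE 0.08, adjusted p = 0.000168). Fkbp10, a prolyl isomerase needed for telopeptide lysine hydroxylation, fell from 595 ± 33.3 to 282 ± 22.2 CPM (SD, n = 3), and Fkbp9 fell by 0.35 on the log2 scale (adjusted p = 0.0159). The Fkbp9 call was lost with totals alone (-0.14, adjusted p = 0.238), with quantile normalization (-0.11, 0.321) and without control replicate 3 or senescent replicate 2 (highest adjusted p = 0.0719). Fkbp7 at -0.05 and Fkbp14 at -0.03 did not pass (adjusted p = 0.707 and 0.791), and both were positive under scaling by totals (0.17 and 0.18) and by quantiles (0.04 and 0.05). Tmem38b, an endoplasmic reticulum cation channel linked to collagen hydroxylation, rose from 10.9 ± 1.83 to 16.3 ± 0.726 CPM (SD, n = 3). Colgalt2 was too low to be tested.

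In the secretion and propeptide processing list, 4 of 12 tested genes were lower and 0 were higher, with a median log2 fold change of -0.30. Of all tested genes 24.3% were lower, and of those with at least 50 CPM 35.9%. The list holds genes on both sides of that level, and the 4 lower ones lie above it. The 3 with the smallest p were Sec24d and Sec23a, coat proteins of the vesicles that carry procollagen, at -0.81 (adjusted p = 0.00078) and -0.46 (adjusted p = 0.0028), and Mia3, which loads procollagen into them, at -0.31 (adjusted p = 0.011). With totals alone Mia3 was at -0.096 and lost its call (adjusted p = 0.308). Of 9 genes for copper supply and lysyl oxidase partners, 2 were lower and 1 was higher, a share near the 24.3% of all tested genes called lower. With the replicate number as a block 4 were lower and 2 were higher, and 1 was lower without control replicate 3, senescent replicate 2 or senescent replicate 3. Slc31a1, the copper importer, fell from 82.1 ± 2.19 to 51.1 ± 0.975 CPM (SD, n = 3), a log2 fold change of -0.68. Efemp2, a fibulin that brings lysyl oxidase to elastin, fell by 0.37 on the log2 scale (adjusted p = 0.0409). That call was lost with totals alone (-0.15, adjusted p = 0.311), with quantile normalization (-0.17, 0.286) and in every fit without 1 library other than control replicate 2 (highest adjusted p = 0.126). Tgm2, a transglutaminase that crosslinks matrix by another chemistry, rose by 0.79 (adjusted p = 0.00213).

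Prolyl and lysyl hydroxylase genes and lysyl oxidases are known to respond to hypoxia and to TGF-beta, so lists of both were described. The paper's methods state that FAPs were cultured at low oxygen, and its part in these values was not tested. Among 23 hypoxia-inducible genes, 12 were lower and 0 were higher, with a median log2 fold change of -0.68. Of all tested genes 24.3% were lower, and of those with at least 50 CPM 35.9%. At the study's threshold 0 of the 23 passed in either direction. The named examples are the glycolytic enzymes Pgk1 at -0.87, Ldha at -0.72 and Eno1 at -0.97, and they were lower in all 3 senescent cultures. The count of lower hypoxia-inducible genes rose to 21 without control replicate 2, and 26.2% of all tested genes were lower in that fit. That library held the lowest control value of most of the 23, so leaving it out moves them downward. The count ranged from 9 to 21 when each library was left out. Among 13 TGF-beta ligand and response genes, 4 were lower and 1 was higher, with a median of -0.24. This share lies between those of all tested genes, 24.3%, and of genes with at least 50 CPM, 35.9%. With the replicate block 6 were lower and 2 were higher. Tgfb3, a ligand, fell by 0.68 on the log2 scale (adjusted p = 0.00162), and the contractile genes Acta2 and Tagln fell by 1.49 (adjusted p = 0.00203) and 1.01 (adjusted p = 0.0033).

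**Figure D5:**
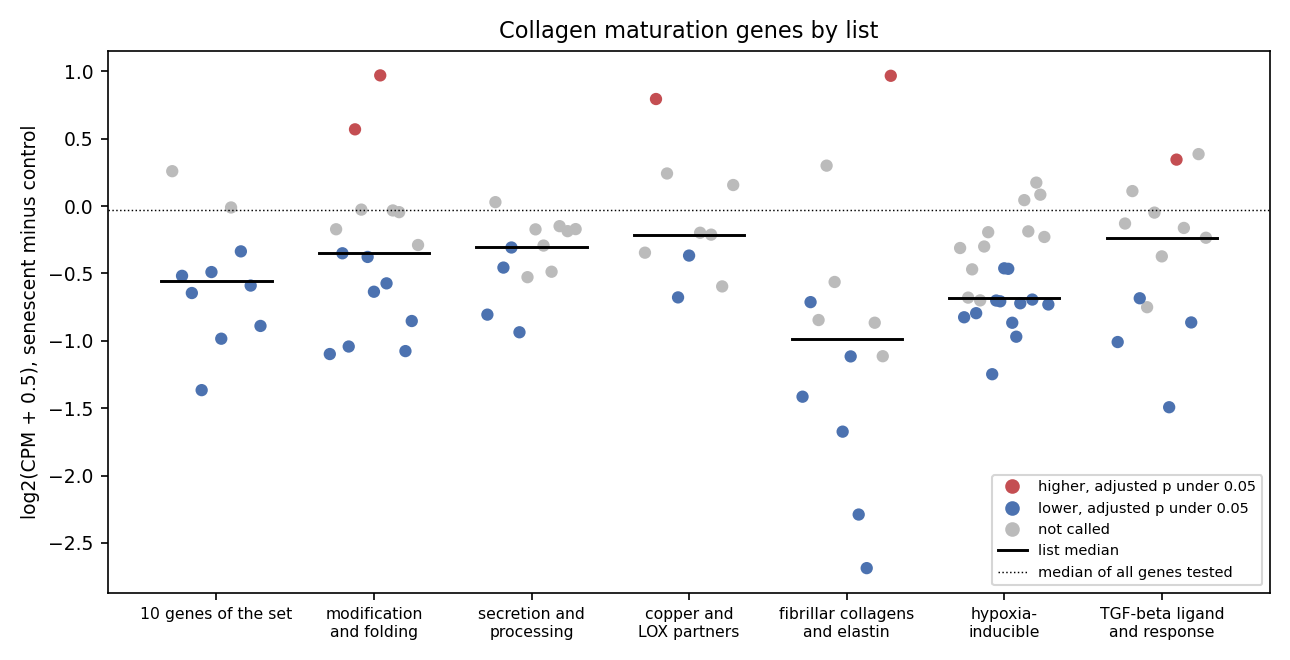
Log2 fold change (senescent minus control) of each tested gene, by list. Black lines are list medians and the dotted line is the median of all tested genes, -0.03. The substrate list has the lowest median, -0.99, and the members have a median of -0.55.

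Across the 6 libraries, the gene whose log2 profile was most like that of a member was found by Pearson's r over all tested genes. Serpinh1 was most like Ddost, a subunit of oligosaccharyltransferase, with r = 0.999, and 1044 genes had an r over 0.95 with it. Plod1 and P4ha2 were most like the ribosomal protein genes Rps21 and Rpl13a, both with r = 0.999. Loxl3 and Plod2, the members without a call, had the fewest such genes, 8 and 11, with Mospd2 (r = 0.976) at the top for Plod2. The nearest genes were Mrps17 for Lox (0.996), Nsun5 for Loxl1 (0.994), Ryk for Loxl2 (0.998), Gm20604 for Loxl4 (0.999) and P4ha1 was nearest to Ptpn2 (0.998). These values describe 6 libraries that share a group difference, and many genes reach a high r in so few points.

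Markers of FAPs and of other cell types that the sort could hold were summed. The 7 FAP markers summed to 687 to 1031 CPM in controls and 1203 to 1489 CPM in senescent cultures, so the labelled cell type was present in every library. The summed pericyte and smooth muscle markers (6 of 6 with values) ranged from 298 to 393 and from 249.6 to 273 CPM, and the tenocyte markers (4 of 4) from 19.9 to 56.0 and from 16.8 to 21.4 CPM. Leukocyte markers (4 of 8) ranged from 8.85 to 12.0 and from 21.1 to 26.0 CPM, endothelial markers (5 of 6) from 19.2 to 39.5 and from 23.8 to 31.2 CPM, and myofiber markers (3 of 7) from 21.5 to 39.9 and from 9.88 to 16.0 CPM. Of 6 satellite cell and myogenic markers, Itga7 alone has values here, at 9.17 to 12.3 and 15.7 to 23.6 CPM. Defining markers such as Ptprc, Adgre1, Pax7, Myod1 and Ckm were looked for and have no values here. The proliferation markers summed to 375 to 882 CPM in controls, with control replicate 2 the highest, and to 40.5 to 66.5 CPM in senescent cultures. Single markers did not all follow their sum. Of 5 tested pericyte and smooth muscle markers, 2 were called higher and 1 lower. Endothelial markers had 2 higher and 1 lower of 4 tested, and tenocyte markers 1 and 1 of 4. FAP markers had 4 higher of 7, leukocyte markers 3 higher of 4 and myofiber markers 1 lower of 3, with 0 the other way. The sums for FAP, pericyte, leukocyte, myofiber and proliferation markers and Itga7 did not overlap between groups, and their part in the lower members was not tested.

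Scaling set part of the count of members. With libraries divided by their totals alone, the median log2 fold change of all tested genes moved from -0.03 to 0.17, and the share of higher genes among all calls went from 47.3% to 72.1%. Under that scaling 4 members were called lower, Serpinh1, P4ha1, P4ha2 and Plod1, and under quantile normalization 5, these and Loxl4. Of all tested genes 13.1% were called lower with totals alone and 22.8% with quantiles, against 24.3% in the main fit. With totals alone Loxl1 was at -0.28 (adjusted p = 0.201), Loxl2 at -0.12 (0.311) and Loxl4 at -0.31 (0.0963). Relative to the median of all genes, the log2 fold changes of the members ranged from -1.33 to 0.29 with the deposited scaling and from -1.32 to 0.31 with totals alone.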

How the data were processed

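Bulk mRNA libraries had been made with a stranded kit from 3 control and 3 senescent FAP cultures, and groups and replicate numbers were taken from the sample labels. The authors deposited 1 table of signal values per gene and library, CPM of the effective library size after edgeR scaling. The submitters' processing notes name edgeR 3.10, R 3.6.0 and mm10. The aligner, the counting tool and the use of strand are not given in the sources used here. The values sum to 919819 to 1090570 CPM. Each was a whole multiple of 1 read (within 0.01 of a whole number for 100% of values), so reads were recovered for the count tests. The plan assumed CPM, and the test was kept for this signal. Of 16895 lines, 1 without a gene name (0.0041% to 0.0070% of reads) was left out.

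The 14776 genes reaching 0.5 CPM in 3 or more libraries were tested in limma 3.58.1 (R 4.3.3), two-sided, on log2(CPM + 0.5) with a variance trend and Benjamini-Hochberg adjustment, after a check on simulated data. edgeR 4.0.16, which called 3076 genes higher and 3556 lower, and DESeq2 1.42.0 were run on recovered reads as alternatives. The other alternatives were pseudocounts of 0.1 and 1, no filter or a filter at 2 CPM, 3 other scalings, each library left out, a replicate block, no variance trend, array weights and the study's threshold. The ratio of Serpinh1 to Col1a1 was planned. Ratios of the other members to Col1a1, and edgeR with a block, were added after the values were seen. Ratios were tested by exact permutation of libraries. Replicate numbers were taken to pair the cultures, since deviations from the group means correlated at 0.54, 0.31 and 0.21 between equal numbers and at -0.36 to 0.15 between unequal ones. No label states this pairing. Deviations within a group cancel out, so higher correlations between equal numbers go with lower ones between unequal numbers. The main fit and the fits without 1 library did not use this pairing. The chi-square statistic per gene between replicates was 15.1 to 154.5, so no library repeated another. The members and lists were chosen with earlier results of these data known. Named genes are all members and modification genes, the 3 smallest p in each other list, 4 substrates, Cdkn1a, Mki67 and the gene most like each member, of which 1 is not reported here; Htra2 was named after its values were seen.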

Additional observations from a re-analysis of the deposited data

How the results depend on the processing

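The count of lower members, 8, became 4 with library totals alone, 5 with quantile normalization and 1 (Serpinh1) at the study's threshold, and ranged from 3 to 8 when each library was left out, with 3 without senescent replicate 2 and 3 without senescent replicate 3. The count of higher members, 0, became 1 (Loxl3) with array weights and ranged from 0 to 1 when libraries were left out. Of the 84 tested genes of the 6 other lists, 5 were higher and 36 lower. The higher count became 8 with totals alone, 9 with array weights and 0 at the study's threshold, and the lower count became 57 with array weights and 10 at that threshold, with ranges of 4 to 5 and 29 to 53 when libraries were left out. The share of all tested genes called lower moved as well, from 24.3% in the main fit to 13.1% with totals alone and 35.3% with array weights. It was 16.4% without senescent replicate 2, 17.9% without senescent replicate 3 and 26.2% without control replicate 2. Over all alternatives the lower counts ranged from 3 to 10 for modification, 0 to 8 for secretion, 0 to 4 for copper, 4 to 10 for substrate, 0 to 21 for hypoxia and 2 to 6 for TGF-beta genes. With the replicate block 8 members were lower and 0 higher, and 7 and 45 genes of the lists were higher and lower. Beside the copper and TGF-beta counts given above, the block changed no count by over 1.5 times and no call of a member. The 4 ratios kept their direction in every alternative, with ranges of 0.57 to 1.22 (Plod2 to Plod1), -0.59 to -0.10 (P4ha2 to P4ha1), -0.60 to -0.22 (Lox to the others) and 0.79 to 1.03 (Serpinh1 to Col1a1), and with the block the exact permutation p was 0.25, 0.5, 0.25 and 0.25, where 0.25 is the smallest that 3 pairs allow. Among genes without a call, these log2 fold changes turned sign. Plod2 was 0.0074 with median-of-ratios factors, 0.20 with totals, 0.14 with quantiles, 0.0052 with edgeR, 0.043 with DESeq2 and -0.14 to 0.15 with libraries left out. Loxl3 ranged from -0.0025 to 0.55 with libraries left out. Crtap was 0.19 with totals, 0.062 with quantiles, 0.012 with DESeq2 and -0.058 to 0.016 with libraries left out. Fkbp14 was 0.18 with totals, 0.047 with quantiles, 0.012 with array weights, 0.0044 with DESeq2 and -0.092 to 0.035 with libraries left out. Fkbp7 was 0.17 with totals, 0.043 with quantiles and -0.11 to 0.016 with libraries left out. P4ha3 (0.040) and Mospd2 (0.14) turned with totals, Mospd2 also with libraries left out (-0.17 to 0.054), and Col3a1 (0.27) with quantiles. The cause of these shifts was not tested.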
